A study of Homo sapiens with 6 samples.

Results

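The clustered histone genes are the 70 autosomal protein-coding genes whose symbols run from H1-1 to H1-6 or begin with H2AC, H2BC, H3C or H4C and a digit, out of 19126 autosomal protein-coding genes in the RefSeq table of GRCh38. Of the 70, 55 lay on chromosome 6 and 13 on chromosome 1, and H4C16 on chromosome 12 and H2BC12L on chromosome 21 stood alone. Each gene was given a window of its body plus 10 kb on each side, and the MAR-seq regions in that window were counted. MAR-seq sequences the DNA that is retained with the nuclear matrix, the insoluble scaffold left after detergent extraction and digestion of nuclei. All samples were human pluripotent stem cells of the H1 line (a cell line name that is unrelated to linker histone H1), and they fell into 3 groups with 2 samples each. The hPSC group was untreated, the shLUC group carried a short hairpin RNA against LUC (a control hairpin), and the shHNRNPU group carried a short hairpin RNA against HNRNPU, which encodes a nuclear RNA-binding protein found in the matrix. The vector, the time after delivery of the hairpin and the degree of knockdown are not given in the sources used here.

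A single region list stood for both repeats of a group, and whether the repeats were separate cultures is not given. The lists held 40106 regions in hPSC, 39368 in shLUC and 36277 in shHNRNPU. Every region was 400 bp wide and carried a score of 0, so a region is either listed or not, with no height behind it. There is no replicate spread, and no difference between lists below has a test or a p-value. Read depth is unknown. The hPSC cells carried no hairpin, and a difference between hPSC and the hairpin lists cannot be told apart from one in preparation, depth or region calling.

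Clustered histone genes supply the core histones H2A, H2B, H3 and H4 and the linker histone H1 that package newly replicated DNA. They are transcribed in S phase, lack introns in their classical form, and give messenger RNAs that end in a stem-loop rather than a poly(A) tail. The genes sit in tight groups, often as H2A and H2B pairs that face away from each other across a short shared promoter, and the groups associate with a nuclear compartment called the histone locus body. Pluripotent stem cells divide rapidly and have a high demand for histones.

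Example promoters are shown first. RefSeq gives a promoter entry (250 bases before and 50 after the start) for 64 of the 70 genes, and the first entry of each gene was used. H4C1, H4C3, H2AC12, H3C11, H3C12 and H2BC12L had none. For each histone type, the upstream 250 bases are printed for the gene with the most promoter bases under an hPSC region (the first by position where genes tied). They are H1-4 (chr6:26156079-26156328, plus strand), H2AC20 (chr1:149886668-149886917, plus strand), H2BC6 (chr6:26183511-26183760, plus strand), H3C8 (chr6:26271414-26271663, minus strand) and H4C9 (chr6:27139032-27139281, plus strand). H2BC26 (chr1:228457853-228458102, plus strand) is added because both hPSC and shHNRNPU placed a region there, and H4C5 (chr6:26204360-26204609, plus strand) because shHNRNPU alone did. The build is GRCh38.p14, and each is written 5′ to 3′ on the strand of its gene. Capitals mark matches on either strand to the octamer ATTTGCAT, to CCAAT and to TATAAA.
H1-4: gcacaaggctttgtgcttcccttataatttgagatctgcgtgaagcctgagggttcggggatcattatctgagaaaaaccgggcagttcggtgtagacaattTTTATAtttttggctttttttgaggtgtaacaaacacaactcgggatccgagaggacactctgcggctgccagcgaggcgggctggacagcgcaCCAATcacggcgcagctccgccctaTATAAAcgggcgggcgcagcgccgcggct
H2AC20: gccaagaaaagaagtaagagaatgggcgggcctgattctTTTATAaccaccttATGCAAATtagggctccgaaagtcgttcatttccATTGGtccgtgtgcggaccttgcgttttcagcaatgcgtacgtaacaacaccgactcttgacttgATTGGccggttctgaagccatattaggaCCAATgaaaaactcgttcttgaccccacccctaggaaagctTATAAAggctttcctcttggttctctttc
H2BC6: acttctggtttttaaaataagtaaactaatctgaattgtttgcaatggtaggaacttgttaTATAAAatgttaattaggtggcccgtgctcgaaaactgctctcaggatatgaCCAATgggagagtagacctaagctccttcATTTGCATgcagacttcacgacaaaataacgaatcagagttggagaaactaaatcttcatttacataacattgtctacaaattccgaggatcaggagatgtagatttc
H3C8: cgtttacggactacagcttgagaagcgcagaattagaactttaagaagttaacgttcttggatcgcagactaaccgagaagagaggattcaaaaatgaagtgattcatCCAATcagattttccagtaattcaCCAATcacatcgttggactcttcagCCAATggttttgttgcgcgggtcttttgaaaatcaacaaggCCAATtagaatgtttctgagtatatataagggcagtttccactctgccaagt
H4C9: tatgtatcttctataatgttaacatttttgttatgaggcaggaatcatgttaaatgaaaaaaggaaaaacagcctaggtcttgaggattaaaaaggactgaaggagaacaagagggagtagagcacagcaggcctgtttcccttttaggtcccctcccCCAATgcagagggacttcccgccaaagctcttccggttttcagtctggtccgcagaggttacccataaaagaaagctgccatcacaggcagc
H2BC26: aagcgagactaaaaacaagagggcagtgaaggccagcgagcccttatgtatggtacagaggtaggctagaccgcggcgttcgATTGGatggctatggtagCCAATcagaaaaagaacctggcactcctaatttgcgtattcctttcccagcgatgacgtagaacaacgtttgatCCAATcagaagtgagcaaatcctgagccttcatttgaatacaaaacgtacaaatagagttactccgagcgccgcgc
H4C5: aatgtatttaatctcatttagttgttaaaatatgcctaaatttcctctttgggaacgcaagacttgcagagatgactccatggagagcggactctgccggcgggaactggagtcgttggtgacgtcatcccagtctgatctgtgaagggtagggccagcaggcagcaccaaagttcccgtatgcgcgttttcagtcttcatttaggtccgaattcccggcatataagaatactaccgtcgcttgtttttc

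Of the 250 bases shown, an hPSC region covered 227 in H1-4, 250 in H2AC20, 239 in H2BC6, 245 in H3C8 and 250 in H4C9, while neither hairpin list had a region over these 5. These 5 were chosen for their hPSC coverage, so their high hPSC values follow from the choice and are no evidence of a difference between lists. In H2BC26 the hPSC region covered 209 bases and the shHNRNPU region 250. In H4C5 the shHNRNPU region covered 153 bases. No shLUC region touched any of the printed stretches.

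The first question was how many of the histone genes held a matrix region in each list. All genes here means the 19126 autosomal protein-coding genes. In hPSC, 57 of 70 windows (81.4%) held at least 1 region, against 76.3% of all autosomal protein-coding genes. In shLUC the count was 24 of 70 (34.3%), against 70.5% of all genes. In shHNRNPU it was 28 of 70 (40.0%), against 69.3% of all genes. Histone genes are short, with a median body of 494 bp, so their windows are smaller than those of most genes. Other genes with a body of at most 5 kb held a region in 53.5% of 2890 cases in hPSC, 49.3% in shLUC and 47.2% in shHNRNPU. In hPSC the histone share was thus near that of all genes and above that of other short genes. In the hairpin lists it lay below both. Neighbouring windows overlap, so the 57, 24 and 28 windows rest on 32, 11 and 12 distinct regions. The median count per window was 1 in hPSC and 0 in each hairpin list, which were also the medians of the other short genes. All genes had a median of 1 in every list.

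**Figure D1:**
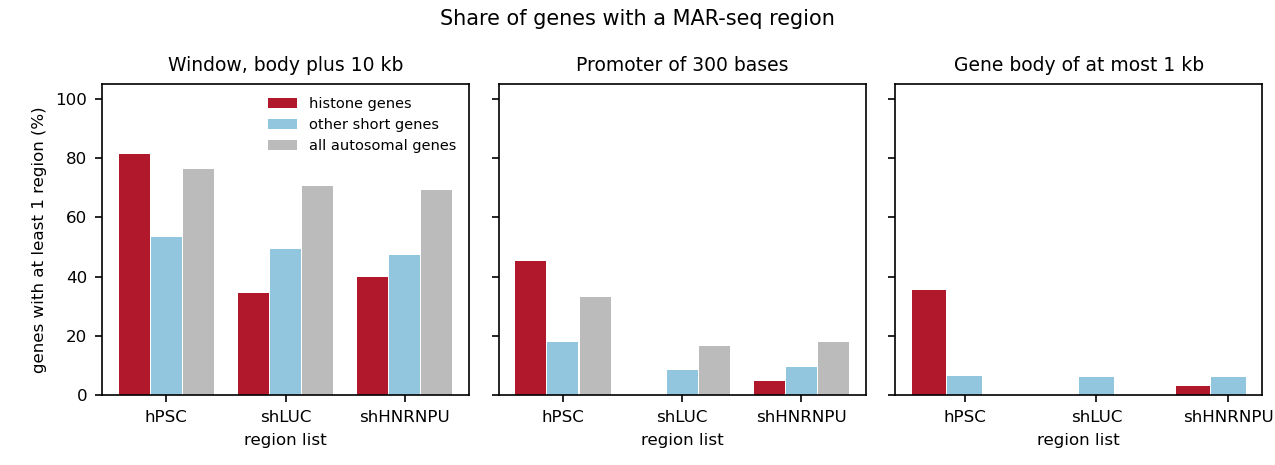
Share of genes with at least 1 MAR-seq region (vertical axis, percent) in the hPSC, shLUC and shHNRNPU lists, for the histone genes (red), other short genes (blue, at most 5 kb; at most 1 kb in the right panel) and all autosomal protein-coding genes (grey, not drawn in the right panel). Among the bars drawn, those of the histone genes stand highest in hPSC (81.4% of windows, 45.3% of promoters, 35.5% of short bodies) and lie below the other bars in both hairpin lists, with 0 for shLUC promoters and short bodies.

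The promoters were counted next. An hPSC region covered at least part of the 300-base promoter of 29 of 64 histone genes (45.3%), where the share was 33.1% of all 15101 promoters and 17.8% of promoters of other short genes. No histone promoter was covered in shLUC (0 of 64), where 16.6% of all promoters and 8.52% of those of other short genes were. In shHNRNPU the covered promoters were 3 of 64 (4.69%), namely H2AC25, H2BC26 and H4C5, against 17.9% and 9.61%. Promoters of neighbouring genes overlap, so the 29 promoters rested on 20 distinct regions, of which 8 lay over more than 1 histone promoter.

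Counts over gene bodies were also highest in hPSC, while the order of the hairpin lists varied with body length. Among the 62 histone genes of at most 1 kb, 22 had an hPSC region over the body (35.5%), 0 had a shLUC region and 2 had a shHNRNPU region (3.23%). Other genes of at most 1 kb had a region over the body in 6.62%, 6.16% and 6.16% of 438 cases. The 8 histone genes whose annotated bodies exceed 1 kb held a body region in 4, 3 and 1 cases. Over all 70, the bodies with a region numbered 26 in hPSC, 3 in shLUC and 3 in shHNRNPU, where 59.3%, 54.0% and 53.3% of all autosomal genes had one.

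By type, the promoters under an hPSC region were 10 of 16 for H2A, 10 of 18 for H2B, 3 of 11 for H3, 5 of 13 for H4 and 1 of 6 for the linker histone H1. Among the 3 for H3, the entry of H3C4 has the same coordinates as that of H2AC7, so this promoter counts under both types. H2A and H2B form the dimers on the outer faces of the nucleosome, and H3 and H4 the central tetramer. Among bodies, H4 genes led with 8 of 15, followed by H2B with 9 of 19, H1 with 2 of 6, H2A with 4 of 17 and H3 with 3 of 13. The H1 windows were the type most often occupied in the hairpin lists, with 4 of 6 in shLUC and 5 of 6 in shHNRNPU, and all 6 held a region in hPSC. Of all autosomal genes, 76.3% had an occupied window in hPSC, 70.5% in shLUC and 69.3% in shHNRNPU. With 6 genes, the H1 counts are not read as a trait of this type. With 6 to 19 genes per type and shared regions between neighbours, the order of the types is a description only.

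**Figure D2:**
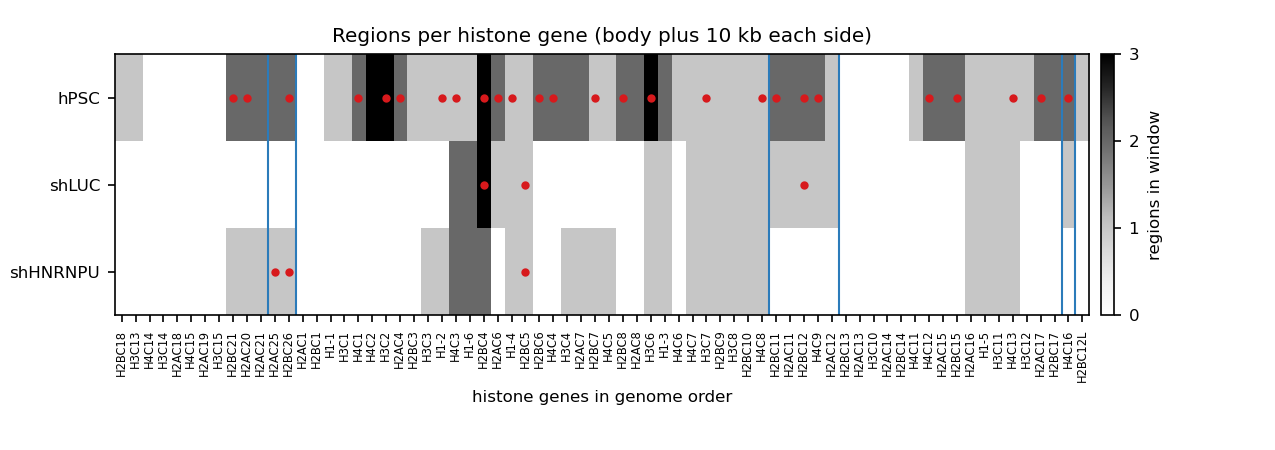
Regions per histone gene window (shade, 0 to 3 regions) for the 70 genes in genome order (horizontal axis) and the 3 lists (vertical axis). Red points mark genes with a region over the body, and blue lines separate groups of genes over 300 kb apart or on different chromosomes. The hPSC row is filled for 57 genes and carries 26 points, and the hairpin rows are filled for 24 and 28 genes with 3 points each.

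Since windows overlap, each region was then counted once. The 70 windows together covered 0.590 Mb and held 32 distinct regions in hPSC, 11 in shLUC and 12 in shHNRNPU. This gave 54.2, 18.6 and 20.3 regions per Mb. The windows of all autosomal protein-coding genes held 18.5, 18.1 and 16.8 per Mb, and those of other short genes 31.7, 29.1 and 27.2 per Mb. The hairpin densities were thus near that of all gene windows and below that of other short genes, while the hPSC density was above both.

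The position of the distinct regions differed as well. In hPSC the region centres lay at a median of 96 bp from the nearest histone gene start, with an interquartile range of 41 to 649 bp over the 31 regions with a listed start on their chromosome. In shLUC the median was 2545 bp over 11 regions and the closest lay 856 bp away. In shHNRNPU the median was 2520 bp over 12 regions, and the closest lay 38 bp away. Of the 32 hPSC regions, 27 (84.4%, exact Clopper-Pearson interval 67.2 to 94.7%) overlapped a histone gene body or promoter. The corresponding share was 3 of 11 in shLUC (27.3%, 6.02 to 61%) and 3 of 12 in shHNRNPU (25.0%, 5.49 to 57.2%). These intervals cover counting error only. The same distances and overlaps were not measured at other genes. Over all promoters the hPSC list also covered more, with 33.1% against 16.6% in shLUC and 17.9% in shHNRNPU. The difference in position is therefore not shown to be particular to histone genes.

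**Figure D3:**
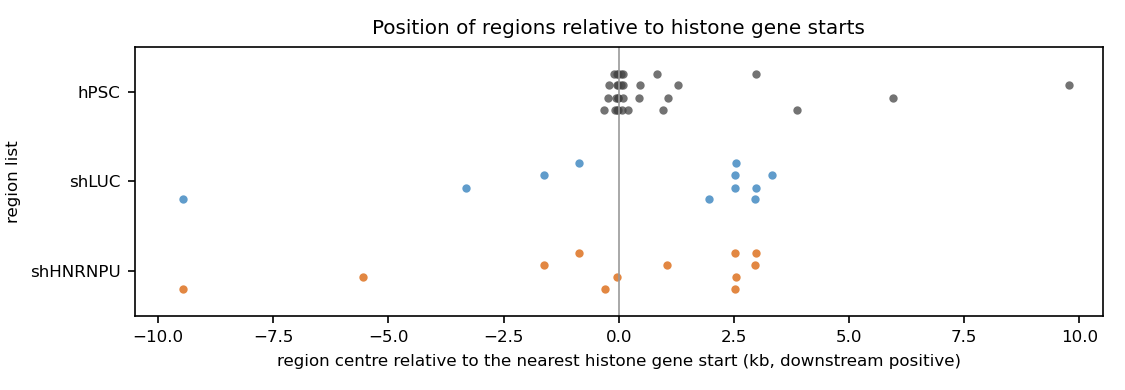
Distance of each distinct region centre from the nearest listed histone gene start (horizontal axis, kb, positive downstream) in the 3 lists. Points are single regions, spread vertically to separate them. The hPSC points crowd at 0 with a median absolute distance of 96 bp, and the hairpin points lie farther out, with medians of 2545 and 2520 bp.

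The large group on chromosome 6 was examined gene by gene. Its first block runs from 25726063 to 26285534 and holds 34 genes, of which 32 held an hPSC region in the window, 14 a shLUC region and 19 a shHNRNPU region. The shares of all autosomal genes were 76.3%, 70.5% and 69.3%. Windows in the block overlap, and their counts rest on 17, 8 and 9 distinct regions. At the divergent pair H2BC7 and H2AC7, which encode an H2B and an H2A, 1 hPSC region (26199303 to 26199702) lay over the promoters of both genes, including the listed start that H3C4 shares with H2AC7. At H2BC8 and H2AC8, the region 26216509 to 26216908 covered 270 and 238 promoter bases. At H2BC4 and H2AC6, the region 26124067 to 26124466 covered 110 and 155 promoter bases. None of these promoters was touched by a hairpin list.

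Of the 32 genes of the block with a promoter entry, 14 had an hPSC region over it and 18 did not, among them H1-1, H3C1, H2BC3, H1-3, H4C6 and H2BC9. The promoter of H4C5 lay under a shHNRNPU region and no hPSC region. The body of H2BC5 held a region of both hairpin lists and none of hPSC. The hPSC region over H1-4, a major somatic linker histone gene, lay at 26156102 to 26156501, with its centre at -28 bp from the start. H2AC4 had all 300 promoter bases under the region 26033492 to 26033891. H2BC6, H4C4, H4C8, H3C2 and H3C8 each had 1 hPSC region over the promoter, with 50 bases covered in H4C4 and 289 in H2BC6 as the extremes. At H3C6 the hPSC region 26224978 to 26225377 lay 42 bp from the later of its listed starts and missed the first promoter entry. The bodies of H1-2 and H3C7 and the long annotated body of H2BC4 each held 1 hPSC region that missed the promoter. H4C1 and H4C3, which have no promoter entry, each held 1 hPSC region over the body.

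The second block, 27132316 to 27147562 with 5 genes, held 2 hPSC regions, 1 shLUC region and 0 shHNRNPU regions. One hPSC region lay between H2BC11 and H2AC11, over 259 and 212 bases of their promoters. The other lay on H4C9, which sits within the longer annotated body of H2BC12. The shLUC region at 27142419 to 27142818 lay in the same long body, and the 5 windows of the block all took their shLUC count from it. The third block, 27807479 to 27893891 with 16 genes, held 5 hPSC regions. They lay on H4C12, on the pair H2AC15 and H2BC15, on H4C13, on the pair H2AC17 and H2BC17, and at 27903004 to 27903403 beyond the last gene. Both hairpin lists held here only the region 27864262 to 27864661, which lies on the pseudogene H2BC16P beside H2AC16.

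**Figure D4:**
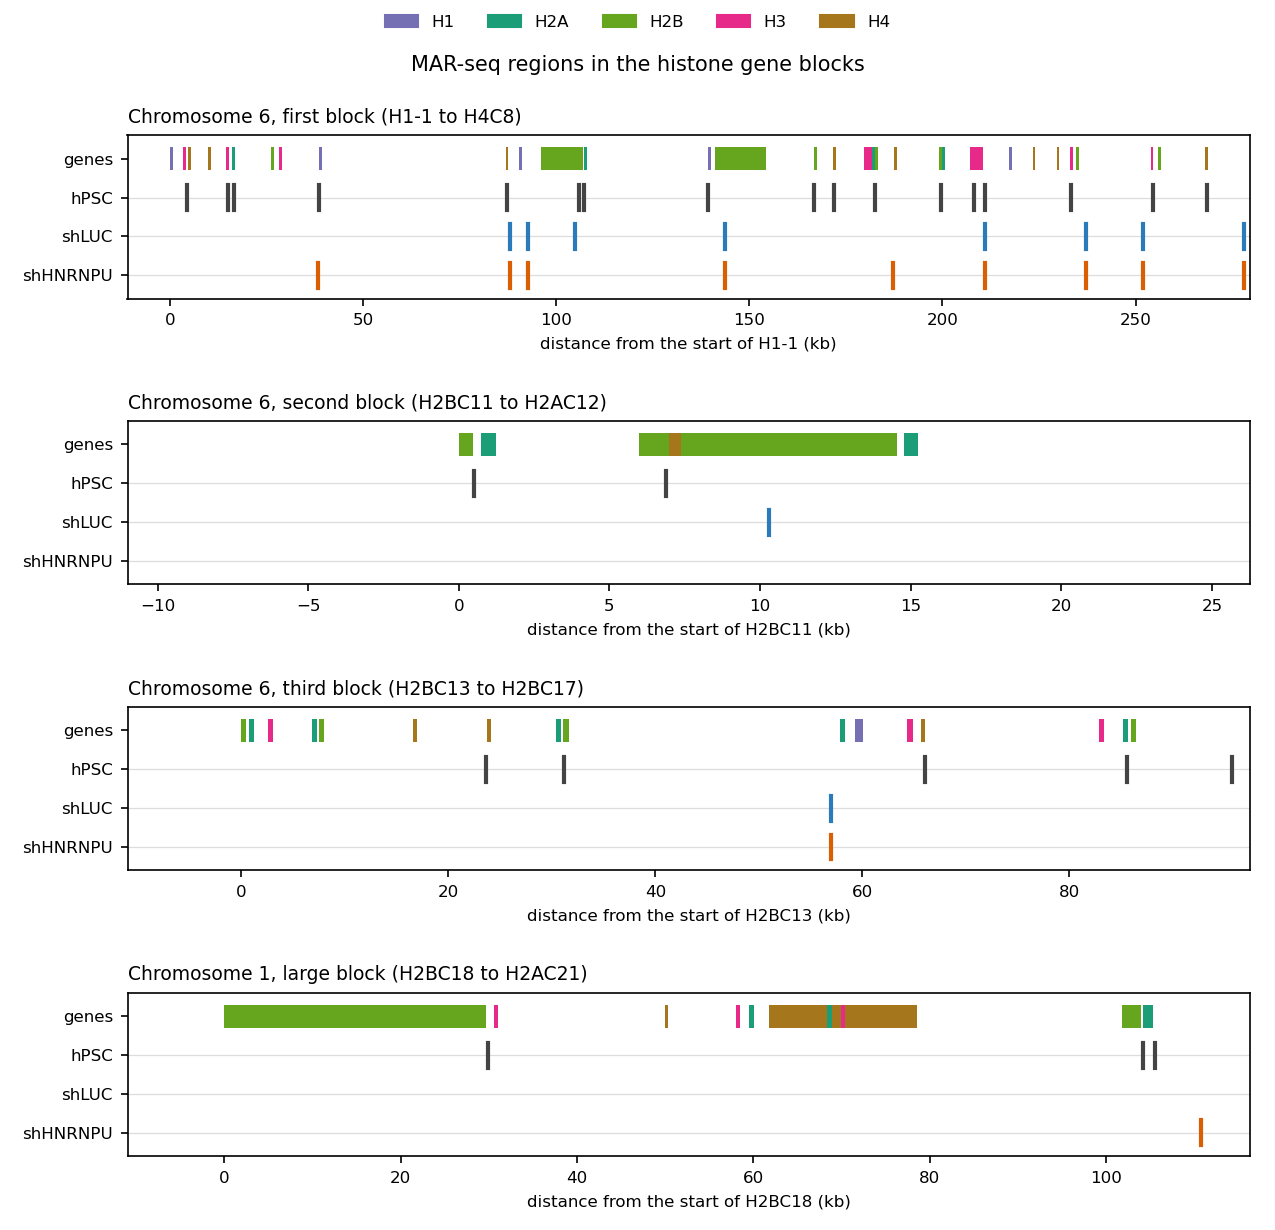
MAR-seq regions (vertical ticks) of the 3 lists below the histone genes (coloured boxes, by type) in 4 blocks, with distance from the first gene shown in kb on the horizontal axis. The first panel starts at H1-1 and leaves out H2AC1 and H2BC1, and ticks and the shortest genes are drawn wider than to scale. Most hPSC ticks stand below genes, most hairpin ticks stand between them, and blue and orange ticks align at 8 positions.

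On chromosome 1, the block from 149782689 to 149887965 held 11 genes. Genes here include H2BC21 and H2AC20, a divergent H2B and H2A pair. The 3 hPSC regions lay at the promoter of H2BC18 (226 bases covered), between H2BC21 and H2AC20 (268 and 300 bases) and at H2AC21 (123 bases). shLUC held 0 regions here, and shHNRNPU held 1 at 149893308 to 149893707, with its centre at -5542 bp from the start of H2AC21. The 6 genes H4C14, H3C14, H2AC18, H4C15, H2AC19 and H3C15 in the middle of the block held no region in any list. H4C14 and H4C15 had identical promoters (300 of 300 bases), so short reads from either copy cannot be placed uniquely. How such reads were handled is not given in the sources used here, and its part in these zeros was not tested.

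The smaller chromosome 1 pair, H2AC25 and H2BC26, held the clearest case of a promoter in 2 lists. The hPSC region at 228457894 to 228458293 and the shHNRNPU region at 228457712 to 228458111 overlapped by 218 bases across the promoter between the genes. shLUC had no region within 10 kb of either gene. A second hPSC region, at 228463859 to 228464258, lay on the pseudogene H2BC27P.

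Of the genes that stood alone, H4C16 on chromosome 12 had an hPSC region over 268 of its 300 promoter bases (14770950 to 14771349) and another at 14769643 to 14770042. shLUC placed a region at 14774250 to 14774649, over the start of the neighbouring replication-independent gene H2AJ, and shHNRNPU placed none in the window. H2BC12L on chromosome 21 had 1 hPSC region in its window, inside the neighbouring gene HSF2BP, and none in the hairpin lists.

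The second question was how far the lists shared positions at these genes. Of the 11 shLUC regions, 8 (72.7%, exact Clopper-Pearson interval 39.0 to 94.0%) were also in shHNRNPU, all 8 with identical coordinates, against 70.9% of autosomal shLUC regions. Counted from shHNRNPU, the share was 8 of 12 (66.7%, 34.9 to 90.1%), against 77.0%. Both shares hold the genome-wide value within their intervals. Whether the hairpin lists were called separately or from a common set of regions is not given in the sources used here. Its part in the identical coordinates, and in the closer sharing between the hairpin lists than with hPSC, was not tested. The shared regions included 26104951 to 26105350 beside H4C3, 26109565 to 26109964 upstream of H1-6 (a testis linker histone gene), and 26160468 to 26160867 inside the annotated body of H2BC5. The others lay 3 kb or less from H3C6, H2BC9 and H3C8, beyond H4C8, and on H2BC16P.

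From the hPSC side few regions were shared. A shLUC region overlapped 1 of the 32 (3.12%, 0.0791 to 16.2%), against 14.0% of autosomal hPSC regions. A shHNRNPU region overlapped 3 of the 32 (9.38%, 1.98 to 25.0%), against 15.6%. Counted from the hairpin lists, an hPSC region overlapped 1 of 11 shLUC regions (9.09%, 0.23 to 41.3%), against 14.2%, and 3 of 12 shHNRNPU regions (25.0%, 5.49 to 57.2%), against 17.3%. The genome-wide values lie within all of these intervals. The one region in all 3 lists stood downstream of H3C6, where hPSC (26227906 to 26228305) overlapped both hairpin lists by 385 bases. The other hPSC regions shared with shHNRNPU were at the pair H2AC25 and H2BC26 and at H1-2, where 181 bases were shared near the downstream end of the gene. No hPSC region in the windows had the same coordinates as a hairpin region.

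The third question was what differed between knockdown and hairpin control. Against shLUC, the shHNRNPU count was higher in 11 of 70 windows (15.7%, against 17.7% of all autosomal genes), lower in 8 (11.4%, against 25.2%) and equal in 51 (72.9%, against 57.2%). No window differed by more than 1 region. The equal windows include 22 with a region in hPSC alone and 13 with none in any list, so both hairpin counts there are 0. Windows of all genes are longer and have a median of 1 region in each hairpin list, against 0 for the histone genes. The share of equal counts among other short genes was not computed. The 11 higher windows came from 4 distinct regions without a shLUC counterpart. These were the region over H2AC25 and H2BC26, the region beside H1-2 (26055214 to 26055613, also in the window of H3C3), the region at H4C5 (26204113 to 26204512, also in the windows of H3C4, H2AC7 and H2BC7) and the region upstream of H2AC21 (also in the windows of H2BC21 and H2AC20). The 8 lower windows came from 3 distinct shLUC regions. They were 26121770 to 26122169 in the body of H2BC4 (also in the window of H2AC6), the region in H2BC12 (in all 5 windows of the second chromosome 6 block) and the region near H4C16. Of the 4 regions without a shLUC counterpart, 2 had an hPSC counterpart. With 1 list per group, a difference of 4 against 3 regions cannot be set against the spread between cultures.

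Against the untreated cells the counts were less even. The hPSC count exceeded that of shLUC in 41 of 70 windows (58.6%, against 36.7% of all autosomal genes), was equal in 27 (38.6%, against 32.6%) and was lower in 2 (2.86%, against 30.8%). Those were H4C3 and H1-6 with 1 region in hPSC and 2 in shLUC. The highest hPSC counts were 3 regions, in the windows of H4C2, H3C2, H2BC4 and H3C6. Against these, shLUC had 0, 0, 3 and 1, and shHNRNPU had 0, 0, 2 and 1. The hPSC count exceeded that of shHNRNPU in 39 windows (55.7%, against 39.0%), was equal in 29 (41.4%, against 33.1%) and was lower in the same pair of genes (2.86%, against 27.9%). The comparisons of hPSC and of shHNRNPU with shLUC share the shLUC list.

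Of the 70 windows, 17 (24.3%) held a region in all 3 lists, where 53.3% of all autosomal genes and 26.8% of other short genes did. These were H1-3, H1-4, H1-5 and H1-6 among linker histones, H2AC16 for H2A, and H2BC4, H2BC5, H2BC9 and H2BC10 for H2B. For H3 they were H3C6, H3C7, H3C8 and H3C11, and for H4 they were H4C3, H4C7, H4C8 and H4C13. Of these genes, those with counts other than 1 in some list were H4C3 and H1-6 (1, 2 and 2 in hPSC, shLUC and shHNRNPU), H2BC4 (3, 3 and 2), H3C6 (3, 1 and 1) and H1-3 (2, 1 and 1). In 22 windows (31.4%) a region was found in hPSC and in neither hairpin list, against 12.3% of all genes and 16.4% of other short genes. In 11 windows (15.7%) a region was found in hPSC and shHNRNPU but not in shLUC, against 5.05% of all genes and 4.74% of other short genes. In 7 windows (10.0%) one was found in hPSC and shLUC but not in shHNRNPU, against 5.71% and 5.54%. Neighbouring windows overlap, so these shares count the same regions more than once. The 11 windows rest on the 4 shHNRNPU regions without a shLUC counterpart, of which 2 overlapped an hPSC region. The 7 windows rest on the 3 shLUC regions without a shHNRNPU counterpart. In 0 windows was a region found in a hairpin list but not in hPSC, against 12.8% and 18.9%. The last 13 windows (18.6%, against 10.9% of all genes and 27.6% of other short genes) held no region. Besides the 6 genes on chromosome 1, these were the testis genes H2AC1 and H2BC1, which lie apart from the rest of the first chromosome 6 block, and H2BC13, H2AC13, H3C10, H2AC14 and H2BC14 at the start of the third block.

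The DNA between the histone genes of chromosome 6 was counted for comparison. In the histone windows (0.406 Mb) there were 24 hPSC, 10 shLUC and 10 shHNRNPU regions, or 59.1, 24.6 and 24.6 per Mb. In the 1.782 Mb between these windows there were 38, 38 and 37 regions, or 21.3, 21.3 and 20.8 per Mb. The whole chromosome had 14.2, 13.9 and 12.9 per Mb. Thus the lists held nearly equal numbers in the intervening DNA, and the excess of hPSC regions lay in the histone windows. The span holds 20 other protein-coding genes, among them butyrophilin genes, SLC17A solute carriers, HFE and zinc-finger genes. Of these, 13 held an hPSC region in the window, 13 a shLUC region and 14 a shHNRNPU region (65.0%, 65.0% and 70.0%). The shares of all autosomal genes were 76.3%, 70.5% and 69.3%. Some of these windows overlap histone windows, so the counts are not separate. The only hPSC region in the HFE window is the one on H4C3.

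**Figure D5:**
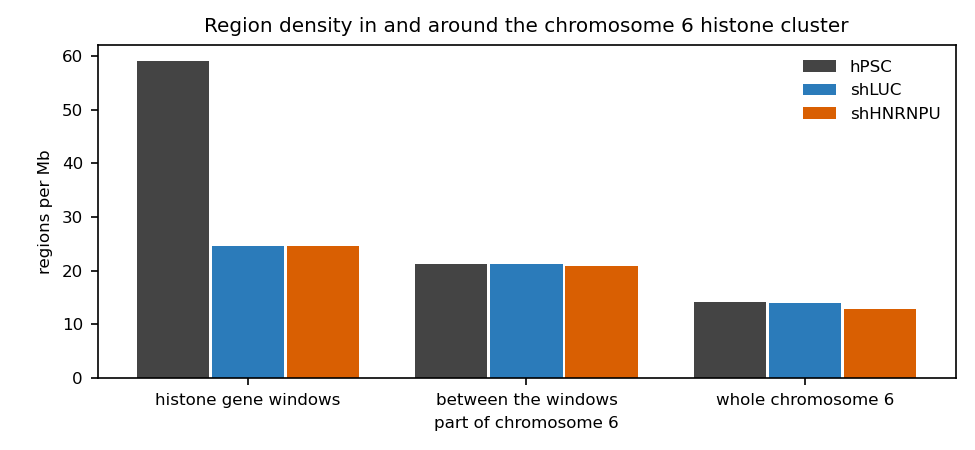
Regions per Mb (vertical axis) in the histone gene windows of the chromosome 6 cluster, in the DNA between those windows and in the whole chromosome, for the 3 lists. Bars for hPSC, shLUC and shHNRNPU are 59.1, 24.6 and 24.6 in the windows, and near 21 for all lists between them.

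Histone genes outside the clusters served as a further comparison. These 14 replication-independent genes, such as H2AX, H3-3A, H3-3B and the centromeric variant gene CENPA, held a window region in 11 cases in hPSC, 11 in shLUC and 10 in shHNRNPU. They include H2AJ beside H4C16, whose 2, 1 and 0 regions are the ones already counted for H4C16. H2AZ2 had 4, 1 and 3 regions, and it was the only gene of this list with a region over the promoter in every list. The genes that act in the histone locus body and in histone messenger RNA processing numbered 21 on autosomes and held a window region in 14, 13 and 14 cases. NPAT, the coactivator of histone gene transcription in the locus body, had 3 regions in hPSC, of which 1 covered its promoter, and 0 in both hairpin lists. SLBP, which binds the stem-loop of histone messenger RNA, had 0, 0 and 1 region, and LSM11, a subunit of the U7 particle that processes it, had 0, 2 and 2. Over both of these gene lists the number of occupied windows differed by at most 1 between region lists, where it fell from 57 to 24 and 28 among the clustered genes. Similar totals do not mean the same genes. Among the 21, SNRPE, NPAT, CDK2 and SYMPK were occupied in hPSC alone. CPSF3, LSM11, HINFP and CPSF2 were occupied in both hairpin lists and not in hPSC, and SLBP and SNRPF in shHNRNPU alone. Of all autosomal genes, 12.3% were occupied in hPSC and no hairpin list, and 12.8% in a hairpin list and not in hPSC. Nothing is read from these few genes. Most genes of these lists are also longer than the clustered genes. Of all autosomal genes, 76.3%, 70.5% and 69.3% had an occupied window. Of 7 pluripotency genes, 6 held a region in hPSC, 6 in shLUC and 3 in shHNRNPU, beside 76.3%, 70.5% and 69.3% of all genes, and nothing is read from so few genes. The lists carry no expression by which the cell type or the knockdown could be checked.

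The promoters were last compared by sequence, since the rule did not use it. The octamer was found in 26 of 64 histone promoters (40.6%), against 1.69% of 15101 promoters of the same length. CCAAT was found in 84.4%, against 36.0%, and TATAAA in 65.6%, against 9.71%. The octamer was in 14 of 18 H2B and 11 of 16 H2A promoters and in 0 of 13 H4 promoters. Histone promoters had a median GC content of 43.2%, where all promoters had 63.0%. All promoters with an hPSC region had a median GC content of 65.3%, while the 29 histone promoters with an hPSC region had 43.0%. Among histone promoters the octamer was in 17 of the 29 with an hPSC region and in 9 of the 35 without, while TATAAA was in 62.1% and 68.6%. Neighbouring promoters overlap, and the 29 rest on 20 distinct regions, so some matches are counted more than once. The octamer lay almost wholly in H2A and H2B promoters, the types most often covered. Over all promoters with an hPSC region its share was 1.34%. A match is a description of letters and not of binding.

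Nuclei had been digested with MspI (CCGG), HaeIII (GGCC), RsaI (GTAC), AluI (AGCT), BamHI (GGATCC) and PvuII (CAGCTG), whose sites were counted on the same 300 bases; a PvuII site contains an AluI site. Histone promoters held a median of 4 such sites, against 7 for all promoters, and the median was 4 both with and without an hPSC region. MspI sites were present in 37.5% of histone promoters, against 76.1% of all, and AluI sites in 78.1%, against 73.2%. Among histone promoters, MspI sites were in 24.1% of the 29 with an hPSC region and in 48.6% of the 35 without, RsaI sites in 27.6% and 57.1%, and HaeIII sites in 65.5% and 51.4%. Over all promoters MspI ran the other way, with sites in 4595 of the 4995 under an hPSC region, beside the 76.1% of all. Overlapping histone promoters again hold some sites in common, which are counted more than once. Whether site density bears on which promoters were listed was not tested.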

How the data were processed

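MAR-seq libraries of 6 samples in 3 groups were represented by 3 deposited region lists, 1 per group. The authors' lists give chromosome, start and end on hg38, and the deposited score column holds 0 in every row. The submitters' processing notes name cutadapt, Bowtie2, SAMtools, MACS2 and deepTools. The calling threshold, the use of the input sample and the pooling of replicates are not given in the sources used here. The supplied paper does not cover MAR-seq, so methods come from the labels alone. Labels give no library batch.

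Members and gene lists were chosen with earlier results of these data known. Genes came from the RefSeq table of GRCh38.p14, which gives no strand or exons. Starts and strands came from the RefSeq promoter table. Promoter coverage used the first entry of a gene, and distances used the nearest of all listed histone gene starts on the chromosome. Exonic, intronic or UTR location was not assigned. A region was counted where it overlapped a window by at least 1 bp, and coordinates are counted from 1. Genes were joined into blocks where neighbours lay at most 300 kb apart. Genes were named where the body held a region, where all 3 lists had a region in the window, where the hairpin lists differed (up to 8 by the rule, but all are given), or where they stood alone. Shares of distinct regions have exact 95% Clopper-Pearson intervals. Read depth is unknown. The counting code was tested on simulated intervals. Alternatives covered the flank, the overlap rule and the merging of regions, and that on listed starts and the comparison of bodies of at most 1 kb were chosen after seeing the data. Counting used pandas 2.3.3 and numpy 2.4.6 under Python 3.11.15, intervals scipy 1.17.1, and plots matplotlib 3.10.9.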

Additional observations from a re-analysis of the deposited data

How the results depend on the processing

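Of 63 recomputed values, 48 stayed within a factor of 1.5 of the reported count or within the interval of the reported share, and 15 did not. The order of the lists, with hPSC above both hairpin lists, held in each setting of the gene and region counts. Histone genes with a region over the body alone numbered 26 in hPSC, 3 in shLUC and 3 in shHNRNPU, in place of 57, 24 and 28. With 1 kb each side the counts were 6 in shLUC and 8 in shHNRNPU, and with 25 kb the count was 46 in shHNRNPU. The distinct regions rose with 25 kb each side to 19 in shLUC and 21 in shHNRNPU. Over the whole spans of the clusters they were 70 in hPSC, 49 in shLUC and 49 in shHNRNPU, since these spans add the intervening DNA. Requiring identical coordinates brought each share between hPSC and a hairpin list to 0%, since no hPSC region there had the coordinates of a hairpin region. This setting could not change the shares between the hairpin lists, since all 8 shared regions already had identical coordinates. Counting any listed start raised the hPSC promoters from 29 to 30.

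No paired analysis was possible because the repeats of a group are represented jointly by 1 list, and leaving out a replicate was not possible for the same reason. The lists carry no read depth, so a region missing from a list is a region not called there. Each difference between knockdown and hairpin control at these genes rests on 3 or 4 regions.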
